A study of Mus musculus with 12 samples.

Results

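Hox genes and their partners of the Meis and Pbx families were followed in RNA from 4 populations of vessel-lining (endothelial) cells sorted from mouse bone marrow. The members were chosen by symbol alone, with no measured value: every Hox gene of clusters A to D, and every Meis and Pbx gene, with a row in the deposited table. They number 35 of 17362 genes, namely 10 Hoxa, 8 Hoxb, 6 Hoxc and 4 Hoxd genes with 3 Meis and 4 Pbx genes. All 35 passed the filter on low values, at least 10 reads at the mean library size in at least 3 libraries. The other 11 mouse Hox genes (Hoxa13, Hoxb1, Hoxb13, Hoxc11, Hoxc12, Hoxc13, Hoxd1, Hoxd10, Hoxd11, Hoxd12 and Hoxd13) were not analysed here.

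Marrow was freed by crushing the tibia, femur and iliac bones of untreated B6 mice, and 3 libraries were made from each population, with 6 mice named in all. CD200-high capillary cells were gated as strongly CD200-positive, Sca1+, CD31+, EMCN- and CD45-. Type H vessel cells, capillaries of growing bone that carry much CD31 and endomucin (EMCN), were EMCN+, Sca1+, CD31+ and CD45-. Arterial cells were CD200-, Sca1+, CD31+ and CD45-, and sinusoidal cells were gated on the same Sca1+, CD31+ and CD45- markers with no CD200 or EMCN term given. CD45, encoded by Ptprc, marks nearly all blood cells. The age and sex of the mice, and whether mice were pooled, are not given in the sources used here, so the p-values measure the spread between these samples.

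Hox proteins are homeodomain transcription factors encoded in clusters whose gene order follows the body axis: anterior genes pattern the hindbrain and neck, posterior genes the lower trunk, pelvis and limbs. Adult connective tissue and vessels keep part of this regional code, and blood stem cells use several Hoxa and Hoxb genes. Pbx and Meis proteins are homeodomain partners that bind DNA together with Hox proteins and sharpen their choice of sites. In marrow, Meis1 is needed for blood stem cells and for the platelet-forming megakaryocytes.

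The libraries held 7.33 to 21.6 M listed reads (M, 1e6). The libraries labelled sinusoidal did not carry the transcripts of their gate as the others did. Ly6a, the Sca1 gene, averaged 10.19, 8.92 and 9.78 log2 CPM (counts per 1e6 reads) in CD200-high, type H and arterial cells, against 4.05 in the libraries labelled sinusoidal. Cdh5, a junction protein of all endothelium, averaged 7.76, 8.38 and 7.29 log2 CPM against -0.47, and the endothelial factor Sox17 had no read in any library labelled sinusoidal. Erg, another endothelial factor, went the other way, with 2.07, 3.70 and 2.89 log2 CPM against 4.39. Emcn was read in CD200-high cells too, gated as EMCN-, at 8.26 log2 CPM, against 9.02 in type H cells. Ptprc was read in all 4 CD45- gates, at 5.38, 3.98 and 7.41 log2 CPM in CD200-high, type H and arterial cells and 6.55 in the libraries labelled sinusoidal.

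Summed Hox RNA was highest in CD200-high and type H cells, intermediate in arterial cells and lowest in the libraries labelled sinusoidal. The sum over Hox rows was 383, 331 and 292 CPM in CD200-high, 217, 321 and 250 CPM in type H, 112, 175 and 177 CPM in arterial, and 41.6, 38.5 and 39.0 CPM in sinusoidal-labelled libraries. No sinusoidal-labelled library reached an arterial one, no arterial library reached a type H or CD200-high one, and CD200-high and type H libraries overlapped. The partners did not follow this order: Meis genes summed to 27.3 ± 28.9, 27.7 ± 7.49 and 40.9 ± 15.6 CPM in CD200-high, type H and arterial cells, against 59.5 ± 13.1 CPM in the libraries labelled sinusoidal (SD, n = 3 each). Pbx genes summed to 70.3 ± 23.0, 78.9 ± 39.2 and 88.1 ± 12.5 CPM in the same order, against 96.7 ± 31.2 CPM, with ranges that overlapped. In bulk RNA, fewer cells of a type and less RNA per cell cannot be told apart.

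**Figure D1:**
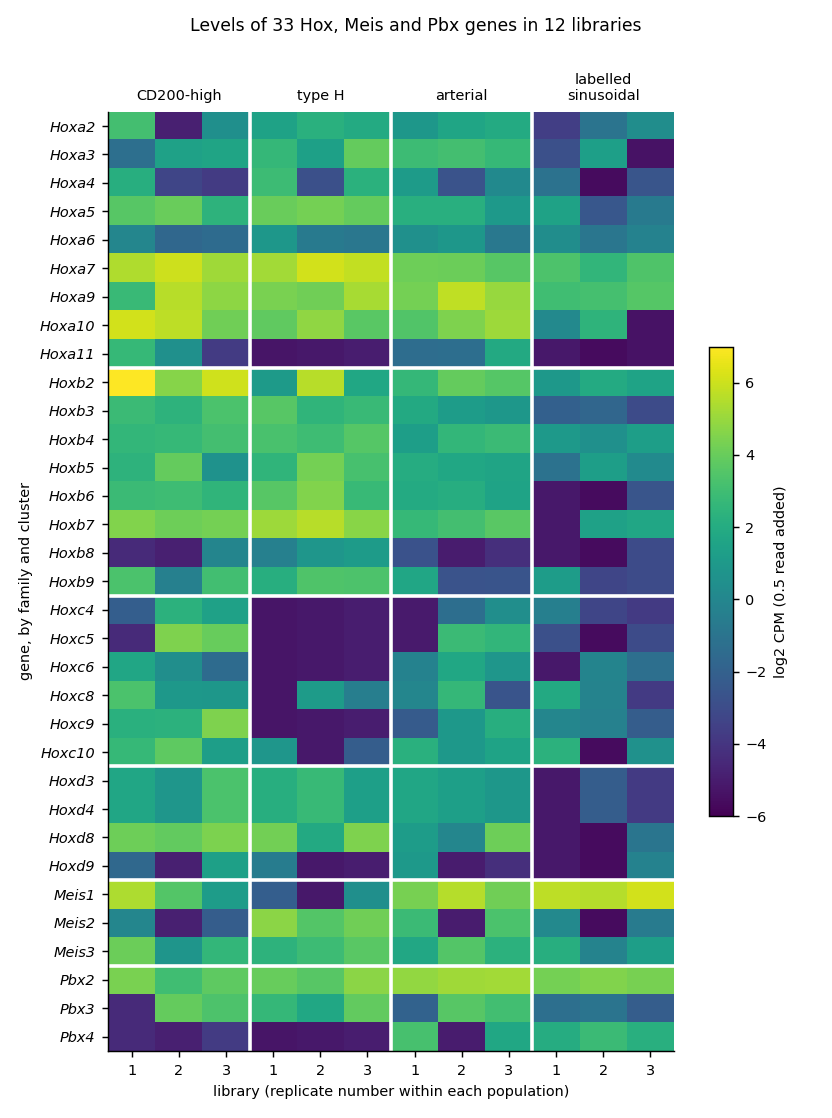
Level of 33 of the genes (rows, by family and cluster) in each of the 12 libraries (columns, by population), as log2 CPM with 0.5 read added. Most Hoxc genes are dark in type H columns. Hoxd3, Hoxd4, Hoxd8, Hoxb3 and Hoxb6 are dark in the columns labelled sinusoidal, and Meis1 is bright there and dark in type H. Hoxb8 is dark in most columns outside type H, and Hoxd9 has dark columns in every population.

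**Figure D2:**
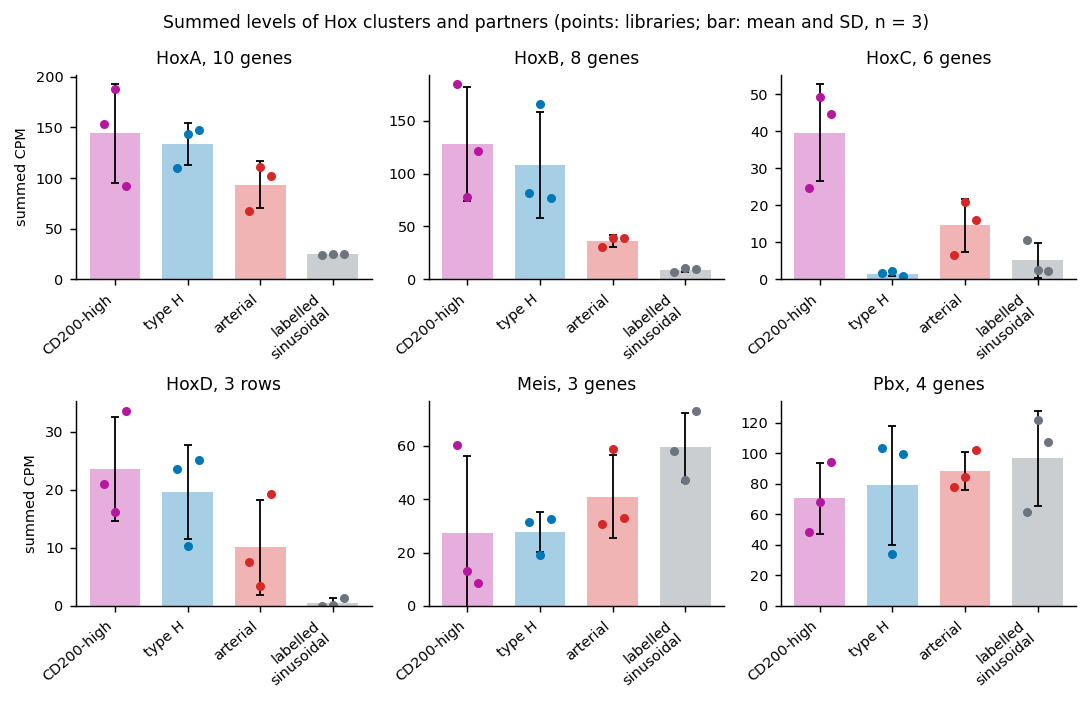
Summed CPM of each Hox cluster, of Meis and of Pbx genes, with Hoxd3 and Hoxd4 counted once (points: libraries, bars: mean and SD, n = 3). HoxA sums to 144, 134 and 93.3 CPM in CD200-high, type H and arterial cells against 24.8 CPM in the libraries labelled sinusoidal, while HoxC sums to 39.6, 1.61 and 14.6 CPM against 5.13 CPM.

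An overall test for any difference between the 4 populations called 16 of 35 members at an adjusted p under 0.05, against 37.4% of 17086 genes tested. All tests are limma fits across every gene kept, with Benjamini-Hochberg adjustment; differences are log2 with their standard error (SE). Fitted without the libraries labelled sinusoidal, a comparison added after the data were seen, the overall test called 5 members, against 21.1% of genes. No member was highest in 1 population against each of the other 3, where 1.57%, 2.89%, 1% and 1.29% of all genes were highest in CD200-high, type H, arterial and sinusoidal-labelled cells. At an unadjusted p under 0.05 for each of the 3 differences 1 member, Hoxb2, was highest in CD200-high and 1, Hoxb8, in type H, and voom on recovered reads called 0 with adjustment.

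Divided by exon length, which allows genes to be compared, Hoxb2, Hoxa7, Hoxa10 and Hoxb7 led the Hox genes in CD200-high cells, with 20.8 ± 14.5, 16.7 ± 5.17, 14.3 ± 7.93 and 12.95 ± 1.98 CPM per kb (SD, n = 3). Their SDs overlapped, so this order is loose. In type H cells Hoxb7 and Hoxa7 led with 23.7 ± 7.58 and 18.6 ± 5.44 CPM per kb, above Hoxa5 with 9.03 ± 1.28. Arterial cells had no clear leader: Hoxa10, Hoxa9, Hoxb7 and Hoxa7 lay between 5.403 and 6.90 CPM per kb. In the libraries labelled sinusoidal the top Hox gene, Hoxa7, reached 3.12 ± 0.913 CPM per kb. Pbx2 had the highest mean of the partners in all 4 populations, at 3.87 ± 1.79, 5.02 ± 2.11 and 9.34 ± 1.04 CPM per kb in CD200-high, type H and arterial cells and 5.79 ± 0.573 CPM per kb in sinusoidal-labelled libraries. Its SD overlapped that of the next partner in all but arterial cells, so this order is loose too. In sinusoidal-labelled libraries that partner was Meis1, at 5.36 ± 1.17 CPM per kb.

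Some rows cannot be told apart. Hoxd3 and Hoxd4 held the same reads in all 12 libraries, 486 in total, and the antisense gene Hoxd3os1 held 496, the same in 8 libraries; in GENCODE M21 (GRCm38) the 3 genes share exons. Hoxd3 and Hoxd4 are described as 1 row, Hoxd3/Hoxd4, but count as 2 members in the counts of calls and in the medians. Hoxb2 (3776 reads) was followed by the antisense Hoxb3os (3587 reads), which held 84.6% to 100% of its reads in every library. The strand counted is not given in the sources used here, so Hoxb2 reads and antisense reads cannot be separated. Hoxa7 shares 586 exon bases with the antisense Hoxaas3, which held 1588 reads to the 5678 of Hoxa7. Reads also came and went between replicates: 10 of 35 members (28.6%) had a population with 1 library at 0 and another at 50 reads or more, against 18.4% of genes kept.

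The promoters of 4 members are shown because their genes differ in pattern: Hoxa3, Hoxa7 and Hoxb8 were called higher in type H cells than in the libraries labelled sinusoidal, and Meis1 lower. Each is 300 bases from RefSeq (GRCm38.p6), 250 before and 50 after an annotated start, read 5′ to 3′ on the gene's strand, at chr6:52213018-52213317 (minus) for Hoxa3, chr6:52218524-52218823 (minus) for Hoxa7, chr11:96281655-96281954 (plus) for Hoxb8 and chr11:19018920-19019219 (minus) for Meis1. Capitals mark matches, on either strand, to the Pbx-Hox letters TGATNNAT (in Hoxb8) or the Meis letters TGACAG (in Hoxa3). Hoxa7 and Meis1 have neither in this window.
Hoxa3: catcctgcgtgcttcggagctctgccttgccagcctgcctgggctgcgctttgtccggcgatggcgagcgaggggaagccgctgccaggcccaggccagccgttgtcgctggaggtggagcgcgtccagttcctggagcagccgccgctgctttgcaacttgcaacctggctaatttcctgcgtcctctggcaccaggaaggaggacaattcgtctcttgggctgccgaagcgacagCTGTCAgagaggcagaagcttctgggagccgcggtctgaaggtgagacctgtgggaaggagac
Hoxa7: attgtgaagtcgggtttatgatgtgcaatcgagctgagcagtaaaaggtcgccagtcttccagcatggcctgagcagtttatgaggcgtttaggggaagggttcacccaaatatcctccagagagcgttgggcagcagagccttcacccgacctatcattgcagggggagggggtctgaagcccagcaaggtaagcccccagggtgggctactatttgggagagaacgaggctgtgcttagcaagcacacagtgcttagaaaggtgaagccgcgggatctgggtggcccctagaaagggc
Hoxb8: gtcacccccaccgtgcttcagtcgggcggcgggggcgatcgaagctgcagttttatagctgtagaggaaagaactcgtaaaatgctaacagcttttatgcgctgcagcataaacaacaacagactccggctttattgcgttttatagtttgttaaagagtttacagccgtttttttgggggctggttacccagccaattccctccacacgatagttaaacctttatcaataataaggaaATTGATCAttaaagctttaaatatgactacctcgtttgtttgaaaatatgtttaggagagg
Meis1: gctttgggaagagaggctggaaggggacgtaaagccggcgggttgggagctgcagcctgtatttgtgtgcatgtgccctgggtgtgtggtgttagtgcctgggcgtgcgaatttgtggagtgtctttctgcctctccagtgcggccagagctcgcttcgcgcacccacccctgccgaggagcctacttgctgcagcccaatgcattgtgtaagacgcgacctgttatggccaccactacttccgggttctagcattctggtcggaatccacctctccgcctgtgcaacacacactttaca
Among the 21 promoters that the table gives for 20 members, TGATNNAT stood in 2 (Hoxa2 and Hoxb8), against 8.85% of 32851 promoters of the same length. A chromosome that holds no member was left out of these 32851. TGACAG stood in 2 (Hoxa2 and Hoxa3), against 19.2%. No match overlapped another, and a match is only a run of letters.

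Against the libraries labelled sinusoidal, CD200-high cells were called higher for 4 of 10 HoxA, 4 of 8 HoxB, 1 of 6 HoxC and 3 of 4 HoxD genes, with medians of 1.94, 4.08, 3.28 and 5.63 log2. Type H cells were called higher for 4, 6, 0 and 3 genes of these clusters and lower for 1 HoxC gene, with medians of 2.94, 4.93, -1.97 and 5.78. Arterial cells were called higher for 1, 2, 0 and 3, with medians of 2.73, 1.79, 1.79 and 5.01. The HoxD counts and medians take Hoxd3 and Hoxd4 as separate genes although they hold the same reads. Each HoxD median is the value of that shared row. In CD200-high cells 13 of 35 members were called where 28.7% of all genes were, 12 of them higher (14.1% of all genes) and 1 lower (14.6%). In type H cells 16 were called against 28.6% of all genes, 13 of them higher (13.9%) and 3 lower (14.6%). In arterial cells 6 were called against 10.2% of all genes, all 6 higher (8.09%) and none lower (2.14%). Every member called higher was a Hox gene. The median difference over the 28 Hox genes was 3.28 log2 in CD200-high, 2.89 in type H (3.21 with genes that lack reads in 1 population set at their bound) and 2.55 in arterial cells, where the median over all genes was -0.22, -0.20 and -0.02. These 3 comparisons share the same libraries labelled sinusoidal.

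**Figure D3:**
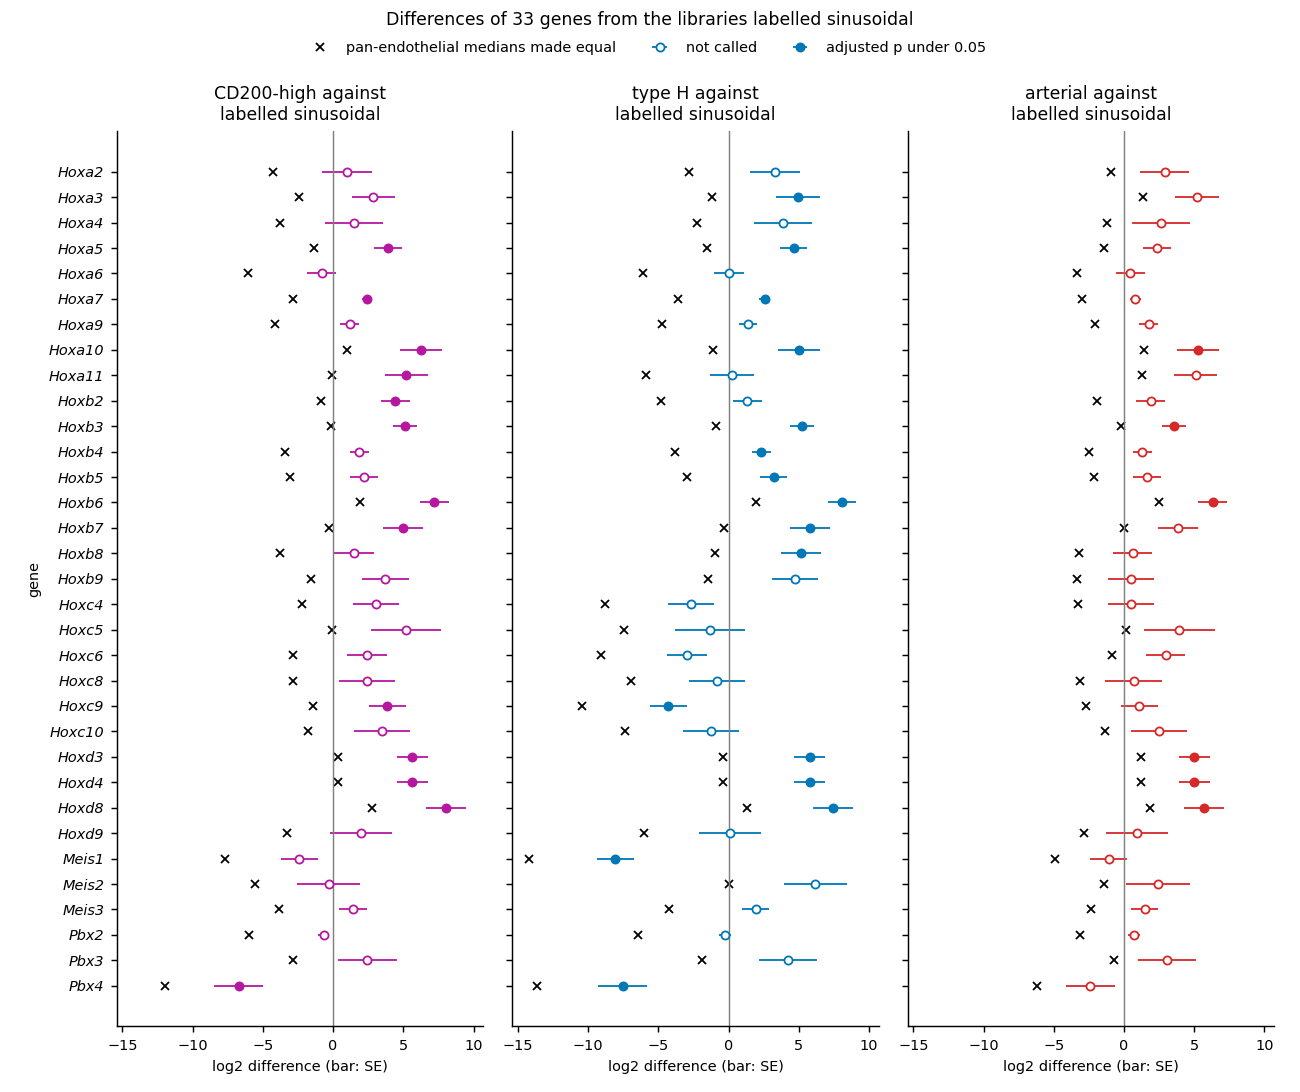
Log2 difference of 33 of the genes from the libraries labelled sinusoidal in CD200-high, type H and arterial cells (circles with SE, filled where the adjusted p is under 0.05), with crosses for the values after every library is shifted to the same pan-endothelial median. Circles of clusters A, B and D lie mostly right of 0 and their crosses mostly left of it or near it, while Meis1 and Pbx4 lie far left in type H.

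The Hox direction depends on what is held equal. Against the libraries labelled sinusoidal, pan-endothelial genes moved with them. Of 16, 15 were called higher in each of the 3 populations, and 1 of 16, Erg, lower in CD200-high cells. They summed to 5050 ± 1560, 10525 ± 469 and 2050 ± 307 CPM in CD200-high, type H and arterial cells, against 257 ± 9.61 CPM in the libraries labelled sinusoidal, where Sox17 was at 0. Their median difference from those libraries was 5.44, 6.78 and 4.32 log2. When every library was shifted to the same pan-endothelial median, the Hox median turned to -2.00 log2 for CD200-high, -3.25 for type H and -1.26 for arterial cells, with medians over all genes of -5.50, -6.34 and -3.83. Of the Hox genes, 8, 14 and 4 were then called lower in CD200-high, type H and arterial cells, and 1 higher, Hoxb6 in arterial cells, where 86.9%, 91.6% and 74.7% of all genes were called in either direction. Between type H and arterial cells, 13 of 16 pan-endothelial genes were called higher in type H (median 2.40 log2), where the Hox median was 0.09. Between CD200-high and type H cells the pan-endothelial median was -1.05 log2 and the Hox median -0.15. The part of endothelial content in the Hox differences was not tested.

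Within HoxA, Hoxa7, a trunk-patterning gene, had the smallest spread. It measured 43.9, 64.5 and 35.6 CPM in CD200-high, 37.0, 68.1 and 55.3 CPM in type H and 17.6, 16.7 and 12.3 CPM in arterial cells, against 10.4, 5.95 and 10.6 CPM in the libraries labelled sinusoidal. CD200-high and type H libraries overlapped each other and lay above all arterial libraries, which lay above all those labelled sinusoidal. The difference from the libraries labelled sinusoidal was 2.42 ± 0.38 log2 in CD200-high (adjusted p = 0.000656) and 2.57 ± 0.38 in type H cells (adjusted p = 0.000357). In arterial cells it was 0.82 ± 0.38 (adjusted p = 0.229). Once pan-endothelial medians were made equal, these values turned to -2.86 in CD200-high and -3.56 in type H cells, both called lower.

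Hoxa7 was also the 1 member called between CD200-high and arterial cells, 1 of 35 where 12.9% of all genes were called (4.75% higher and 8.15% lower in CD200-high), at 1.60 ± 0.38 log2 (adjusted p = 0.0183). That call ended without CD200-high library 2 (adjusted p = 0.0603), without arterial library 3 (0.0669), and with pan-endothelial medians made equal, where the difference was 0.14. Type H cells exceeded arterial cells by 1.75 ± 0.38 log2 (adjusted p = 0.00722), a call kept whichever library was left out but at -0.57 with pan-endothelial medians made equal.

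Hoxa5, a lung-patterning gene reported to restrain human endothelial cells, measured 12.2, 16.5 and 5.31 CPM in CD200-high, 16.3, 19.6 and 14.9 CPM in type H and 4.64, 4.60 and 1.91 CPM in arterial cells, against 2.78, 0.162 and 0.585 CPM in libraries labelled sinusoidal. Only the arterial libraries overlapped those labelled sinusoidal. The call against those libraries held in CD200-high (3.92 ± 0.98 log2, adjusted p = 0.0112) and type H cells (4.64 ± 0.98, adjusted p = 0.00383) whichever library was left out. With pan-endothelial medians made equal the differences were -1.35 and -1.50, and with CD200-high and sinusoidal-labelled libraries fitted alone the adjusted p was 0.0553.

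Hoxa10, which patterns the lumbar region and the uterus, had 69.0, 53.0 and 18.3 CPM in CD200-high, 13.9, 28.9 and 12.5 CPM in type H and 11.1, 22.0 and 34.6 CPM in arterial cells. The libraries labelled sinusoidal held 1.06, 5.47 and 0 CPM, all below every other library and with 1 at 0 reads beside 1 with 135. It was called higher in CD200-high (6.27 ± 1.51 log2, adjusted p = 0.00915), type H (5.03 ± 1.51, 0.0264) and arterial cells (5.28 ± 1.51, 0.0470). The arterial call ended in 10 of 12 leave-one-out fits (adjusted p 0.0552 to 0.159, kept without library 2 or 3 labelled sinusoidal), without the mean-variance trend (0.0865) and with voom on recovered reads (0.0533), and the type H call ended without any 1 of the 3 type H libraries (0.0504 to 0.0747). With each pair of populations fitted alone, the adjusted p was 0.0504, 0.0959 and 0.0890 in CD200-high, type H and arterial cells, and the differences were 0.998, -1.11 and 1.46 log2 with pan-endothelial medians made equal.

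Hoxa3, needed for the thymus and parathyroid, had 0.370, 2.64 and 2.95 CPM in CD200-high, 6.37, 2.61 and 14.9 CPM in type H and 7.62, 8.51 and 6.49 CPM in arterial cells, against 0.111, 2.51 and 0 CPM in libraries labelled sinusoidal. Type H and arterial libraries lay above all those labelled sinusoidal, the lowest type H library by little. It was called in type H cells at 4.95 ± 1.55 log2 (adjusted p = 0.0322) and not in arterial cells at 5.20 ± 1.55 (adjusted p = 0.0564), values less than 1 SE apart. The type H call ended without type H library 1 or 3 or library 1 or 3 labelled sinusoidal (0.0728 to 0.120), with the 2 populations fitted alone (0.0850), and turned to -1.19 with pan-endothelial medians made equal.

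Hoxa11, which patterns the forearm and lower leg and marks stromal progenitors of those bones in mice, had reads in CD200-high and arterial cells alone. It held 70, 20 and 0 reads in CD200-high, 0, 0 and 0 in type H, 6, 6 and 34 in arterial and 0, 0 and 0 in sinusoidal-labelled libraries. Against the floor of 3 reads per library, CD200-high cells were at least 18.1-fold higher than sinusoidal-labelled libraries (called, adjusted p = 0.0255), and type H cells at least 8.45-fold lower than arterial cells (called, adjusted p = 0.0430). The bounds were 4.79-fold without CD200-high library 1 and 2.13-fold without arterial library 3. The first call ended without CD200-high library 1 or 2 or any 1 library labelled sinusoidal (0.0599 to 0.0886), and the second in 10 of 12 leave-one-out fits (0.0501 to 0.147) and with the replicate number as a block (0.0668). With 1 or 5 CPM added the adjusted p was 0.126 and 0.158 for the first, and 0.287 and 0.416 for the second. Quantile normalization ended both (0.0597 and 0.415), the 2 populations alone the first (0.0647), and voom (0.0504) and leaving out all libraries labelled sinusoidal (0.0845) the second. The first was -0.07 log2 with pan-endothelial medians made equal.

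Hoxa9, a gene of blood stem cells and of endothelial commitment, did not pass in any comparison. It measured 6.93, 49.1 and 28.0 CPM in CD200-high, 21.0, 18.4 and 39.5 CPM in type H and 19.2, 53.4 and 31.3 CPM in arterial cells, against 8.02, 8.83 and 11.8 CPM in libraries labelled sinusoidal. Type H and arterial libraries lay above those labelled sinusoidal and the CD200-high ones overlapped them; the arterial difference was 1.75 ± 0.66 log2 (adjusted p = 0.130). Hoxa2, Hoxa4 and Hoxa6 were not called either.

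Within HoxB, Hoxb6, a trunk gene, showed the widest gap. It measured 7.21, 7.64 and 5.61 CPM in CD200-high, 12.2, 22.9 and 6.72 CPM in type H and 3.87, 4.23 and 2.87 CPM in arterial cells, while libraries labelled sinusoidal held 0, 0 and 3 reads. No library of the other populations came near those labelled sinusoidal. It was called at 7.22 ± 1.02 log2 in CD200-high (adjusted p = 0.000292), 8.08 ± 1.02 in type H (0.000113) and 6.32 ± 1.02 in arterial cells (0.00193), whichever library was left out. After the pan-endothelial shift Hoxb6 was still higher, by 1.94 log2 in CD200-high and in type H cells, but not called (adjusted p = 0.105 and 0.101), and by 2.50 in arterial cells, called (0.0489); with 5 CPM added the arterial difference was not called (0.114).

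Hoxb3, a hindbrain gene, went the same way at 7.30, 5.28 and 9.89 CPM in CD200-high, 12.4, 5.61 and 7.05 CPM in type H and 3.69, 2.24 and 1.81 CPM in arterial cells, against 0.223, 0.283 and 0.0975 CPM in libraries labelled sinusoidal. Every library of the other 3 populations lay above all those labelled sinusoidal. It was called at 5.12 ± 0.84 log2 in CD200-high (adjusted p = 0.000880), 5.24 ± 0.84 in type H (0.000633) and 3.58 ± 0.84 in arterial cells (0.0189). The arterial call ended without arterial library 1 or 2 or library 3 labelled sinusoidal (0.0542 to 0.0641), with the 2 populations fitted alone (0.0542) and with 1 or 5 CPM added (0.0598 and 0.199). Shifted in the same way, the 3 differences were -0.16, -0.90 and -0.24. More than 50% of Hoxb3 exon bases (52.9%) lie under the antisense Hoxb3os.

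Hoxb7, a trunk gene, measured 23.4, 17.4 and 19.2 CPM in CD200-high, 34.5, 49.2 and 26.1 CPM in type H and 6.49, 8.58 and 12.8 CPM in arterial cells, against 0, 2.71 and 3.27 CPM in libraries labelled sinusoidal. The 4 populations did not overlap, type H first and those labelled sinusoidal last. CD200-high cells were called at 4.98 ± 1.42 log2 (adjusted p = 0.0220) and type H cells at 5.81 ± 1.42 (0.00918), while arterial cells at 3.83 ± 1.42 were not (0.125). The CD200-high call ended without CD200-high library 1 (0.0561), both ended with 2 populations fitted alone (0.0892 and 0.0541), and both turned with pan-endothelial medians made equal (-0.30 and -0.33).

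Hoxb2, a hindbrain gene whose row includes what may be antisense reads, was high in 3 CD200-high libraries and in 1 type H library. It measured 125, 24.8 and 67.3 CPM in CD200-high, 2.11, 48.3 and 3.36 CPM in type H and 6.37, 14.98 and 11.7 CPM in arterial cells, against 1.89, 3.81 and 2.88 CPM in libraries labelled sinusoidal. The CD200-high libraries lay above all arterial ones and all those labelled sinusoidal, and overlapped type H library 2. It was called in CD200-high cells against those labelled sinusoidal at 4.42 ± 1.04 log2 (adjusted p = 0.00797), a value of -0.85 with pan-endothelial medians made equal, and was not called against type H cells (3.08 ± 1.04, adjusted p = 0.0756).

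Hoxb8, which can hold myeloid progenitors in culture, had few reads and its highest mean in type H cells. It held 0, 0 and 6 reads in CD200-high, 15, 32 and 33 in type H, 2, 0 and 0 in arterial and 0, 0 and 2 in sinusoidal-labelled libraries. Type H libraries lay above all arterial ones and all those labelled sinusoidal, and overlapped CD200-high library 3 (0.770 CPM in type H library 1, 0.886 CPM in that one). They were called against arterial (4.54 ± 1.40 log2, adjusted p = 0.0388) and sinusoidal-labelled libraries (5.16 ± 1.40, 0.0160), not against CD200-high cells (CD200-high minus type H -3.66 ± 1.40, 0.116). The first call ended without any 1 type H library, arterial library 2 or 3 or library 1 labelled sinusoidal (0.0530 to 0.114), without all libraries labelled sinusoidal (0.0646), and with pan-endothelial medians made equal (0.174). The second ended without library 1 or 2 labelled sinusoidal (0.0549 and 0.0622) and turned to -0.98 with pan-endothelial medians made equal.

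Hoxb4, which expands blood stem cells when forced on, measured 6.01, 6.60 and 8.56 CPM in CD200-high, 9.66, 7.66 and 11.8 CPM in type H and 2.44, 6.09 and 7.13 CPM in arterial cells, against 2.01, 1.42 and 2.39 CPM in libraries labelled sinusoidal. Hoxb5, a mark of long-term blood stem cells in mice, measured 5.18, 15.1 and 1.48 CPM in CD200-high, 5.75, 19.3 and 9.18 CPM in type H and 4.05, 3.36 and 2.98 CPM in arterial cells, against 0.446, 2.39 and 1.12 CPM in libraries labelled sinusoidal. In both genes type H and arterial libraries lay above those labelled sinusoidal, and the CD200-high libraries overlapped the last for Hoxb5. Only type H cells were called, at 2.32 ± 0.67 (adjusted p = 0.0217) and 3.21 ± 0.99 log2 (0.0303) against libraries labelled sinusoidal. CD200-high cells lay at 1.87 ± 0.67 (0.0552) and 2.18 ± 0.99 (0.122), and CD200-high minus type H at -0.45 ± 0.67 (0.722) and -1.02 ± 0.99 (0.561). The Hoxb4 call ended without type H library 1 or 3 or library 1 or 2 labelled sinusoidal (0.0529 to 0.0719), and the Hoxb5 call without type H library 2 or 3 or library 1 or 3 labelled sinusoidal (0.0630 to 0.110). Both turned with pan-endothelial medians made equal, to -3.82 and -2.93, and were then called lower. Hoxb9, a thoracic gene, was not called (type H minus sinusoidal-labelled 4.71 ± 1.64, adjusted p = 0.0505; 0.0361, called, with the replicate number as a block).

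Within HoxD, the reads of the Hoxd3/Hoxd4 row cannot be told from those of the antisense Hoxd3os1. Hoxd3 itself promotes the invasive state of endothelial cells. The row held 34, 25 and 66 reads in CD200-high, 85, 120 and 39 in type H and 54, 40 and 17 in arterial cells, against 0, 5 and 1 in libraries labelled sinusoidal. Every library of the other 3 populations lay above those labelled sinusoidal. It was called at 5.63 ± 1.10 log2 in CD200-high (adjusted p = 0.00273), 5.78 ± 1.10 in type H (0.00209) and 5.01 ± 1.10 in arterial cells (0.0132). The arterial call ended without library 1 labelled sinusoidal (0.0539) and with 1 or 5 CPM added (0.0695 and 0.221). After the pan-endothelial shift the differences were 0.36, -0.36 and 1.20, none called.

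Hoxd8, a trunk gene, held 191, 209 and 145 reads in CD200-high, 362, 66 and 349 in type H and 38, 15 and 164 in arterial cells, against 0, 0 and 10 in libraries labelled sinusoidal. Again no library labelled sinusoidal reached another population. The differences were 8.06 ± 1.44 log2 in CD200-high (adjusted p = 0.00148), 7.45 ± 1.44 in type H (0.00220) and 5.68 ± 1.44 in arterial cells (0.0269). The arterial call ended without arterial library 1 or 3 or library 1 or 2 labelled sinusoidal (0.0527 to 0.125), under quantile normalization (0.0625), with voom on the recovered reads (0.0703), with the 2 populations fitted alone (0.0620), and with 1 or 5 CPM added (0.128 and 0.275). With pan-endothelial medians made equal the 3 differences stayed above 0, at 2.79, 1.31 and 1.86, and none was called. Hoxd9 had reads in 2 CD200-high libraries and in 1 library of each other population, and was not called.

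**Figure D4:**
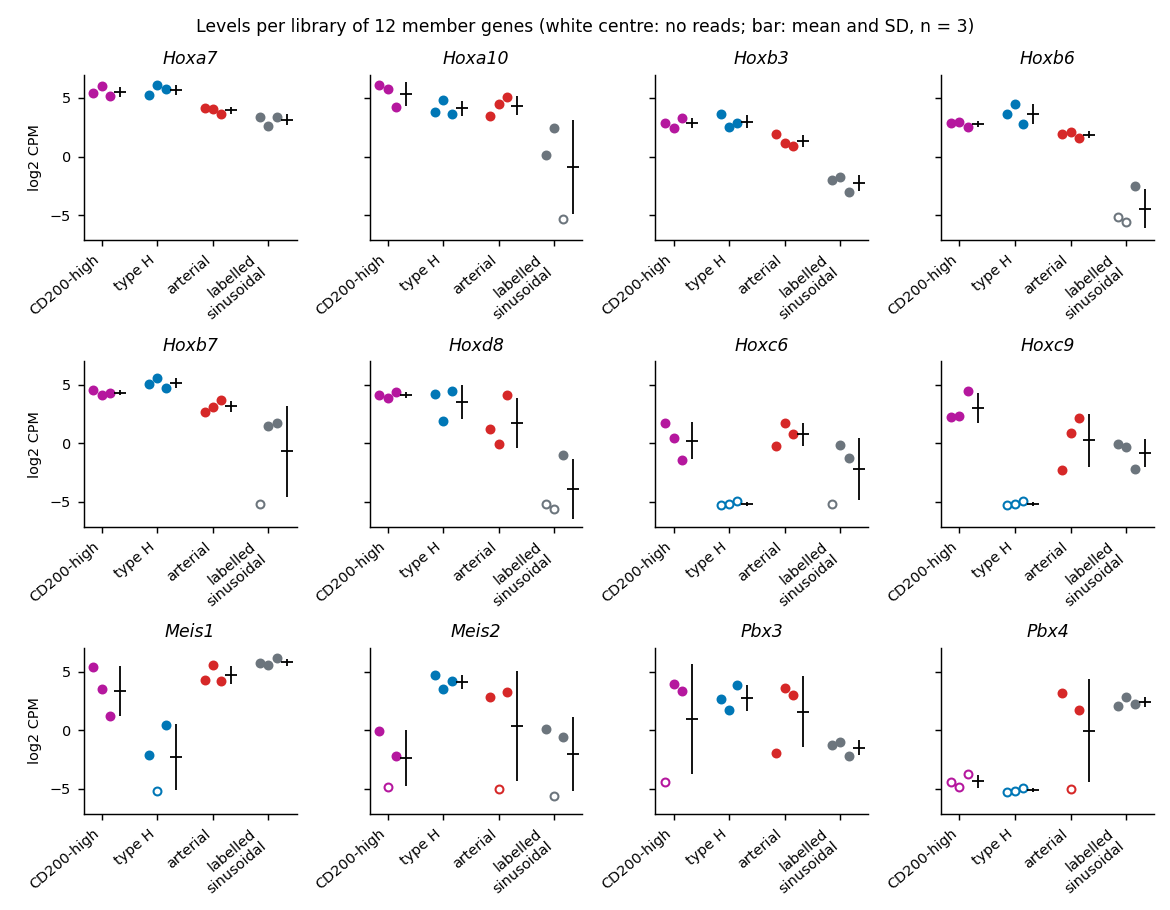
Log2 CPM of 12 members in each library (points, white centre where no read was counted; black dash and line: mean and SD, n = 3). Hoxa7, Hoxb3 and Hoxb6 step down towards the libraries labelled sinusoidal, Hoxc6 and Hoxc9 have no read in type H, Meis1 is lowest in type H, and Pbx4 has no read in CD200-high or type H.

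HoxC followed another pattern. Hoxc4, Hoxc5, Hoxc6 and Hoxc9 had no read in any type H library, and the cluster summed to 1.75, 2.17 and 0.905 CPM there. CD200-high libraries summed to 24.7, 49.3 and 44.7 CPM, arterial libraries to 6.73, 20.9 and 16.1 CPM and those labelled sinusoidal to 10.5, 2.63 and 2.24 CPM. Type H libraries lay below all others, and CD200-high libraries above all others. Between CD200-high and type H cells 4 members were called, where 13% of all genes were called. All 4 lay above type H (6.66% of all genes did, and 6.35% below), and 3 of them were Hoxc genes. Between type H and arterial cells 6 were called, where 20.7% of all genes were. In type H 2 were higher (7.96% of all genes) and 4 lower (12.7%), and the lower ones were Hoxa11, Hoxc6, Hoxc9 and Meis1. This split moved with the setting: 4 were higher and 1 lower under quantile normalization, 6 and 2 with 1 CPM added, 8 and 1 with 5 CPM added, and 0 and 12 with pan-endothelial medians made equal. It was 4 and 3 with voom, 3 and 4 without the mean-variance trend, 4 and 4 with the 2 populations alone and 3 and 3 without the libraries labelled sinusoidal. In all, 6 of 35 members had no read in the 3 type H libraries, against 6.399% of the table.

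Hoxc9, which patterns the thoracic skeleton, held 51, 73 and 150 reads in CD200-high, 0, 0 and 0 in type H, 3, 30 and 41 in arterial and 17, 20 and 4 in sinusoidal-labelled libraries. Every CD200-high library lay above every other library, and type H below. CD200-high cells were at least 62.0-fold higher than type H cells (called, adjusted p = 0.00165), and this call held under every alternative run. Type H cells were at least 12.4-fold lower than arterial cells (adjusted p = 0.0132) and at least 3.79-fold lower than sinusoidal-labelled libraries (0.0292). The first bound was 28.5-fold without CD200-high library 3, and the arterial one 5.95-fold without arterial library 3. The arterial call ended without arterial library 3 (0.0568), under quantile normalization (0.175) and with 1 or 5 CPM added (0.143 and 0.367). The last call ended without any 1 type H library or library 1 or 2 labelled sinusoidal (0.0579 to 0.0983), under quantile normalization (0.268) and with 1 or 5 CPM added (0.475 and 0.769).

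CD200-high cells were also called above libraries labelled sinusoidal for Hoxc9, at 3.86 ± 1.32 log2 (adjusted p = 0.0471). This call ended in 10 of 12 leave-one-out fits (0.0519 to 0.157; it was kept without arterial library 1 or 3), with the replicate number as a block (0.0622), with libraries rescaled to the same total (0.0576), and turned to -1.42 with pan-endothelial medians made equal. Against arterial cells the difference was 2.76 ± 1.32 (adjusted p = 0.204), not called although the libraries did not overlap.

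Hoxc6, a thoracic gene, held 35, 19 and 2 reads in CD200-high, 0, 0 and 0 in type H, 14, 53 and 16 in arterial and 0, 22 and 8 in sinusoidal-labelled libraries. CD200-high and arterial libraries overlapped and lay above type H. CD200-high cells were at least 9.42-fold higher than type H cells (adjusted p = 0.0273), and type H cells at least 11.3-fold lower than arterial cells (0.0118). The bounds were 4.71-fold without CD200-high library 1 and 7.39-fold without arterial library 2. The first call ended without CD200-high library 1 or 2 or any 1 type H library (0.0615 to 0.0889) and with 1 or 5 CPM added (0.118 and 0.196); the second under quantile normalization (0.130) and with 5 CPM added (0.0867).

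Hoxc4, a neck and upper thoracic gene, held 2, 73 and 18 reads in CD200-high, 0, 0 and 0 in type H, 0, 6 and 12 in arterial and 13, 2 and 1 in sinusoidal-labelled libraries. CD200-high cells were at least 15.4-fold higher than type H cells (adjusted p = 0.0405), though CD200-high library 1 had only 2 reads, and at least 8.28-fold higher without CD200-high library 2. The call ended in 8 of 12 leave-one-out fits (0.0518 to 0.118; it was kept without CD200-high library 1, arterial library 1 or 3, or library 1 labelled sinusoidal), with the replicate number as a block (0.0560), with these 2 populations fitted alone (0.0601), without the libraries labelled sinusoidal (0.0612), and with 1 or 5 CPM added (0.0734 and 0.0839).

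Hoxc5 varied most between replicates, with 0, 321 and 105 reads in CD200-high, 0, 0 and 0 in type H, 0, 117 and 54 in arterial and 2, 0 and 2 in sinusoidal-labelled libraries. CD200-high and arterial cells each had 1 library at 0, as in every type H library, and no comparison was called (CD200-high minus type H, adjusted p = 0.120). Hoxc8 and Hoxc10, of the thoracic and lumbar skeleton, were read in type H cells, at 0, 39 and 11 reads and at 34, 0 and 3 reads, and were not called in any comparison. Hoxc5 and Hoxc10 share 166 exon bases on the same strand, 5.37% of Hoxc5 and 8.70% of Hoxc10. Whether reads stand in both rows was not tested.

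Stromal, bone and limb markers moved with HoxC between type H cells and CD200-high or arterial cells. The 16 stromal and bone genes, such as the collagen genes Col1a1 and Col1a2, summed to 82070 to 121143 CPM in CD200-high, 1069 to 3836 CPM in type H and 17082 to 22975 CPM in arterial cells, against 5828 to 11900 CPM in libraries labelled sinusoidal; Postn was at 0 in type H. Of these 16, 12 were above type H and 2 below it in CD200-high cells, and all 16 were called lower in type H than in arterial cells. Between CD200-high and arterial cells, 3 were called higher and 3 lower in CD200-high. In type H cells 3 were called higher and 9 lower than in libraries labelled sinusoidal. The 14 limb and skeletal patterning factors with a row, transcription factors such as Twist1 and Dlx3, summed to 558 to 1072 CPM in CD200-high, 0.278 to 27.7 CPM in type H and 148 to 192 CPM in arterial cells, against 22.9 to 86.6 CPM in libraries labelled sinusoidal. Tbx15, Tbx18, Twist1 and Twist2 were at 0 in type H. Of the 14, 8 were called above type H in CD200-high cells and 7 lower in type H than in arterial cells. By their sum, 10 mural (muscle and pericyte) genes went the other way, at 2652 CPM in type H, 360 CPM in CD200-high and 156 CPM in arterial cells. Of these, 2 were called higher and 2 lower in CD200-high than in type H cells, and 2 higher and 4 lower in type H than in arterial cells. The 10 macrophage genes summed to 1424, 227 and 1744 CPM in type H, CD200-high and arterial cells. The part of stromal RNA in the HoxC differences was not tested.

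**Figure D5:**
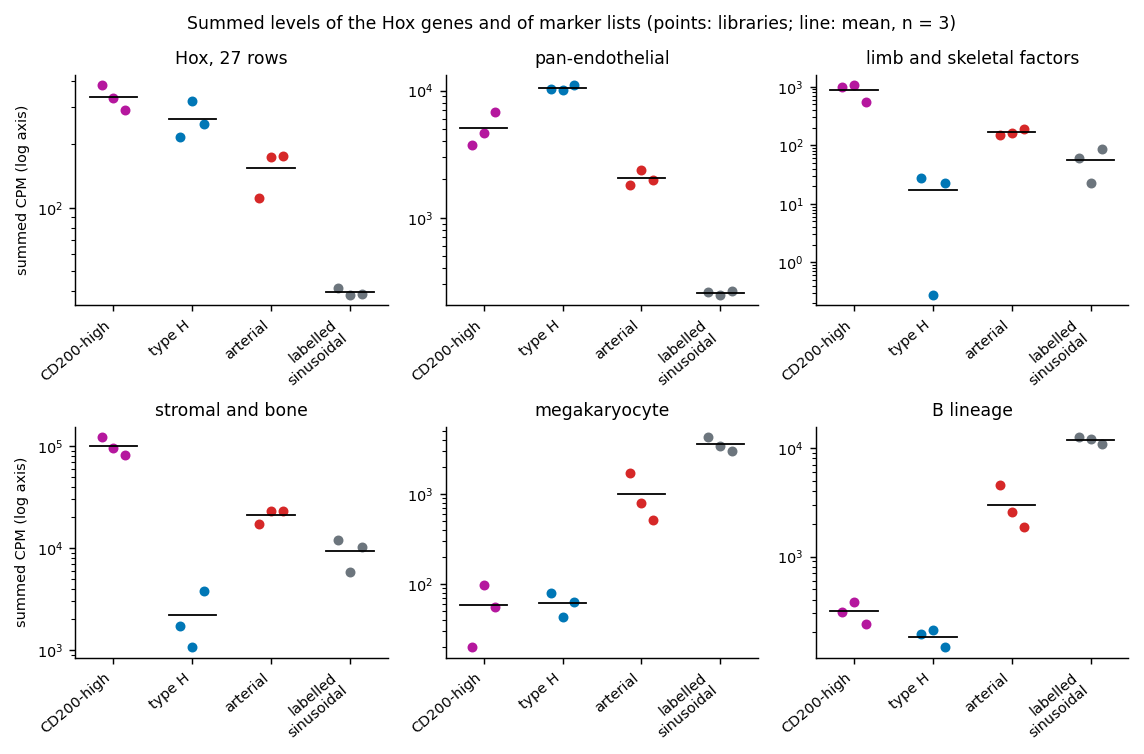
Summed CPM on a log axis of Hox genes (27 rows, Hoxd3 and Hoxd4 counted once) and of 5 marker lists in each library (points; line: mean, n = 3). Pan-endothelial genes are lowest in the libraries labelled sinusoidal, as are Hox genes; limb and skeletal factors and stromal genes are lowest in type H; megakaryocyte and B lineage genes are highest in those labelled sinusoidal.

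Of the partners, Meis1 stood out in type H cells. It measured 42.9, 11.3 and 2.21 CPM in CD200-high, 0.205, 0 and 1.36 CPM in type H and 20.1, 47.5 and 18.3 CPM in arterial cells, against 52.7, 46.4 and 70.2 CPM in libraries labelled sinusoidal. Type H libraries lay below all others, and CD200-high libraries spread over a wide range. Type H cells were called lower than arterial cells (difference -6.97 ± 1.32 log2, adjusted p = 0.00320) and than libraries labelled sinusoidal (difference -8.07 ± 1.32, adjusted p = 0.000713), under every alternative run. CD200-high exceeded type H cells by 5.64 ± 1.32 log2 (adjusted p = 0.0152), a call that ended without CD200-high library 1 (0.0589), with these 2 populations fitted alone (0.146) and with 5 CPM added (0.0612). Against libraries labelled sinusoidal, CD200-high cells differed by -2.42 ± 1.32 (adjusted p = 0.195).

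Meis2, which patterns the proximal limb and the heart, ran the other way, with 10, 0 and 1 reads in CD200-high, 511, 209 and 283 in type H, 121, 0 and 92 in arterial and 19, 0 and 13 in sinusoidal-labelled libraries. Type H libraries lay above all others, yet no comparison was called: the type H difference from libraries labelled sinusoidal was 6.19 ± 2.26 log2 (adjusted p = 0.0602), and CD200-high minus type H was -6.51 ± 2.26 (0.0840). With the replicate number as a block both were called (0.0127 and 0.0207), as was Meis2 in the overall test (0.0219, against 0.103 without the block). Library 2 of CD200-high cells, of arterial cells and of those labelled sinusoidal had no Meis2 read, and library 2 was the lowest of type H, at 209 reads. Meis3, a lesser-studied member that acts in the zebrafish and frog hindbrain, measured 16.7, 1.67 and 6.05 CPM in CD200-high, 5.19, 7.50 and 12.8 CPM in type H and 3.45, 11.3 and 4.9998 CPM in arterial cells, against 4.34, 0.850 and 2.39 CPM in libraries labelled sinusoidal. Only type H libraries cleared those labelled sinusoidal, by 1.93 ± 0.98 log2 (adjusted p = 0.170).

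Pbx2, the most broadly expressed of the family, measured 20.9, 7.92 and 13.4 CPM in CD200-high, 15.7, 12.2 and 26.9 CPM in type H and 29.7, 35.4 and 36.9 CPM in arterial cells, against 19.4, 23.4 and 20.4 CPM in libraries labelled sinusoidal. Arterial libraries lay above all others, and CD200-high minus arterial cells was -1.37 ± 0.42 (adjusted p = 0.0561), not called. On the same strand Pbx2 shares 227 exon bases (6.24% of its own) with Gpsm3. Gpsm3 ran in the same order, averaging 4.22, 4.72 and 5.67 log2 CPM in CD200-high, type H and arterial cells. In libraries labelled sinusoidal Gpsm3 averaged 4.99 log2 CPM. The part of shared reads in the Pbx2 values was not tested.

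Pbx3, a partner of Hoxa9 in leukaemia, had 0, 219 and 69 reads in CD200-high, 123, 59 and 225 in type H and 4, 201 and 77 in arterial cells, against 7, 12 and 4 in libraries labelled sinusoidal. Type H libraries alone cleared those labelled sinusoidal (4.23 ± 2.09 log2, adjusted p = 0.160). Pbx4, known chiefly from the mouse testis, had no read in any CD200-high or type H library. It held 153, 0 and 31 reads in arterial cells and 75, 180 and 94 in libraries labelled sinusoidal. CD200-high cells were at least 17.3-fold lower than libraries labelled sinusoidal (adjusted p = 0.0137) and type H cells at least 31.2-fold lower (0.00687), in every alternative run. Against arterial cells, with 1 library at 0, neither was called (adjusted p = 0.133 in CD200-high and 0.0592 in type H).

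Megakaryocyte and B lineage markers moved with Meis1 and Pbx4 in type H cells, against arterial and sinusoidal-labelled libraries. In type H against arterial cells, 11 of 12 neutrophil genes were also called lower and 0 higher, and 6 of 15 stem and progenitor genes lower and 0 higher. There 4 of 9 erythroid genes were lower and 1 higher, and 3 of 10 macrophage genes lower and 2 higher (all genes: 12.7% lower, 7.96% higher). Against libraries labelled sinusoidal these lists did not all move so, and 0 of 12 neutrophil genes were called in CD200-high or type H cells. In type H cells 1 of 9 erythroid genes was higher and 0 lower, and 3 of 10 macrophage genes were higher and 1 lower. In CD200-high cells 8 of 9 megakaryocyte genes were called lower, where Meis1 was not called. Between CD200-high and type H cells, where Meis1 was called higher in CD200-high, 0 of 9 megakaryocyte genes were called (median -1.31 log2), 0 of 15 stem and progenitor genes were higher and 1 lower, and 2 of 10 B lineage genes were higher and 0 lower. The 9 megakaryocyte genes, such as Pf4, Gp1ba and Gp9, summed to 19.9 to 98.9 CPM in CD200-high, 42.6 to 79.0 CPM in type H and 523 to 1716 CPM in arterial cells, against 3047 to 4288 CPM in libraries labelled sinusoidal, and none was at 0 in all 3 libraries of a population. All 9 were called lower in type H cells than in libraries labelled sinusoidal, and 7 of 9 lower than in arterial cells. The 10 B lineage genes summed to 240 to 385 CPM in CD200-high, 146 to 209 CPM in type H and 1857 to 4549 CPM in arterial cells, against 10915 to 12495 CPM in those labelled sinusoidal. Among 15 genes of blood stem and progenitor cells, 6 were called lower and 3 higher in type H than in libraries labelled sinusoidal; Gfi1 was at 0 in CD200-high and type H cells, Flt3 in CD200-high cells, and Mecom at 0 in those labelled sinusoidal. The part of blood-cell RNA in the Meis1 and Pbx4 differences was not tested.

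In these lists, counts are read against 14.1% of all genes higher and 14.6% lower than in libraries labelled sinusoidal in CD200-high, 13.9% and 14.6% in type H, and 8.09% and 2.14% in arterial cells. Of 20 Polycomb genes, which silence Hox clusters, 4 were called higher and 4 lower in type H than in libraries labelled sinusoidal, with a median of -0.13 log2, and 1 higher and 6 lower in CD200-high, with a median of -0.72; the medians over all genes were -0.20 and -0.22. Ezh2, the Polycomb methyltransferase, averaged 2.48, 2.74 and 5.003 log2 CPM in CD200-high, type H and arterial cells, against 6.29 in those labelled sinusoidal. Of 18 trithorax and related genes, which keep Hox clusters active, none was higher and 6 and 4 were lower in CD200-high and type H cells than in those labelled sinusoidal. Of 9 other genes of the partner class and cofactors, 1, 3 and 1 were higher and 1, 0 and 1 lower in CD200-high, type H and arterial cells. Of 7 upstream and flanking homeobox genes and regulators, 3, 2 and 1 were higher and 1, 1 and 0 lower.

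The genes most like a member across the 12 libraries, by Pearson correlation of log2 CPM over 11135 genes, were taken for 3 members. Meis1 was nearest to Ralgps2 (r = 0.97), Cib1 (0.96) and Fmnl1 (0.96), and Hoxb6 to Pxdn (0.99), Mcam (0.98) and Tmcc3 (0.98). Meis2 was nearest to Asah2 (0.93), Trappc5 (0.87) and Bnip3l (0.83). The 12 libraries share 4 populations, so these values describe population patterns.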

How the data were processed

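Per the labels' protocols, sorted cells were lysed in TRIzol, low-input cDNA libraries were prepared, and reads were 150 bp long. The authors deposited 1 table of log2 values, per library and gene symbol. They are log2 CPM on effective library sizes, 0.5 being added to each count; undoing them gave whole reads within 0.01 for 100% of values in each library. The submitters' processing notes list STAR, featureCounts, Trimmomatic, R 4.3, deepTools and SAMtools, and list a human build although the samples are mouse; strand and annotation are not given in the sources used here.

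The 12 libraries were grouped by title, 3 per population. The 6 comparisons were fitted with limma 3.58.1 (R 4.3.3) on the deposited log2 values, with a mean-variance trend and all libraries in 1 fit, over 17086 genes (276 removed). The added 0.5 makes differences of low genes too small. Bounds rest on 3 reads in each library and reflect counting error alone. Lengths and overlaps come from GENCODE M21, promoters from RefSeq. Alternatives changed scaling, filter, pseudocount, test (voom), samples and libraries. Sample descriptions give the same mouse numbers in every population. After the population mean of each gene was subtracted, the deviations of same-numbered libraries correlated at -0.12 to 0.16 (median 0.03, 18 pairs). This used the 9471 genes above 0 log2 CPM in every library, and the number was run as a block. The script was tested on simulated data.

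Members called by the overall test or a comparison are given with the values of every library, the others by range, by counts or in brief. Of each other list, at most 3 genes are named, by smallest adjusted overall p, plus genes on which a result turns. The rule for the members used symbols alone, but the rule and the lists were set with earlier results of these data known. Replicates differed far beyond sampling noise (chi-square per degree of freedom 52.8 to 125), so none was merged. Plots used matplotlib 3.10.9 in Python 3.11.15. Single-gene results of 2 members and of some other genes are not reported here.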

Additional observations from a re-analysis of the deposited data

How the results depend on the processing

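Of 46 calls of single members, 5 kept their direction and side of the threshold under all alternatives run: Hoxc9 in CD200-high against type H, Pbx4 in CD200-high against sinusoidal-labelled cells, Meis1 in type H against arterial, and Meis1 and Pbx4 in type H against sinusoidal-labelled cells. Whichever library was left out, 25 of 46 calls were kept. Of the 46, 20 turned direction, all when pan-endothelial medians were made equal; by construction that shift moves all genes together, to a median of -5.50, -6.34 and -3.83 log2 in CD200-high, type H and arterial against sinusoidal-labelled cells and -2.52 in type H against arterial. In CD200-high against sinusoidal-labelled cells the turned values were -0.075 for Hoxa11, -1.35 for Hoxa5, -2.86 for Hoxa7, -0.85 for Hoxb2, -0.16 for Hoxb3, -0.30 for Hoxb7 and -1.42 for Hoxc9. In type H against sinusoidal-labelled cells they were -1.11 for Hoxa10, -1.19 for Hoxa3, -1.50 for Hoxa5, -3.56 for Hoxa7, -0.90 for Hoxb3, -3.82 for Hoxb4, -2.93 for Hoxb5, -0.33 for Hoxb7, -0.98 for Hoxb8 and -0.36 for Hoxd3 and Hoxd4. Hoxb3 in arterial against sinusoidal-labelled cells turned to -0.24, and Hoxa7 in type H against arterial cells to -0.57.

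Rescaling to the same total moved the median of all genes to -0.53 log2 in CD200-high against sinusoidal-labelled cells (-0.22 as reported), and quantile normalization to 0.08 in type H against arterial cells (-0.20 as reported). Counts of members called moved as follows, and where nothing is said the cause was not tested. With pan-endothelial medians made equal, 4 were called in CD200-high against arterial (1 as reported, not among the 4), all lower, where 42.6% of all genes were called. In type H against arterial 12 were called (6 as reported), all lower, where 70.2% of all genes were, and 8 were highest in 1 population (0 as reported). In CD200-high against arterial, 2 were called with libraries rescaled to the same total, with quantile normalization, with 1 CPM or 5 CPM added, and with the 2 populations fitted alone. In CD200-high against type H, 2 were called (4 as reported) with 5 CPM added and with the 2 populations fitted alone. With 5 CPM added, 2 were called in arterial against sinusoidal-labelled cells (6 as reported). Quantile normalization and 5 CPM each made 1 member highest in 1 population. The overall test called 5 (16 as reported) without the libraries labelled sinusoidal, a fit added after the data were seen, with fewer samples.

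Leaving out 1 library gave 0 to 3 calls in CD200-high against arterial, 2 to 5 in CD200-high against type H, 11 to 14 in CD200-high against sinusoidal-labelled, 3 to 7 in type H against arterial, 11 to 18 in type H against sinusoidal-labelled and 2 to 7 in arterial against sinusoidal-labelled cells. The overall test then gave 14 to 20, and 0 to 1 members were highest in 1 population. With the replicate block the 6 comparisons, in the same order, called 1, 4, 12, 5, 18 and 6 members, and the overall test 17; the block ended 3 calls, given with Hoxa11, Hoxc4 and Hoxc9 above, and added 3 between populations and 1 in the test over all 4, given with Hoxb9 and Meis2; it changed no other call. Depth limits genes with few reads, such as Hoxa11, Hoxb8 and Hoxc4.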
